A study of Homo sapiens with 8 samples.

Results

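The genes described here are the homeobox genes of the HOXA and HOXD clusters and the TALE genes, the families PBX, MEIS, PKNOX and TGIF whose proteins share DNA sites with HOX proteins. A gene was a member when a probe of the array that is not a control carried its name, which gave 29 of the 27274 gene names on the array. They comprised 10 HOXA genes on 12 probes, 9 HOXD genes on 10 probes and 10 TALE genes on 11 probes, 33 probes in all. One-color Agilent arrays gave the RNA levels of the human pancreatic cancer cell lines MIA PaCa-2, which comes from a primary tumor, and Capan-1, which comes from a liver metastasis. Each line had 2 arrays of cells given 10 nM siRNA against HOXB7 and harvested 48 hours later, and 2 arrays of parental cells, that is, the untreated line. None of the 8 arrays was of cells given a scrambled siRNA, the duplex is not named in the labels, and nothing in them says that the 2 arrays of a group came from separate cultures, so the p-values may measure technical spread alone.

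HOX genes encode transcription factors that pattern the body axis, and within a cluster the genes lie in the order in which they are used from head to tail, from HOXA2 to HOXA13. HOX proteins bind DNA with low specificity on their own, and PBX and MEIS proteins join them on composite sites. PKNOX proteins bind PBX in the manner of MEIS proteins, whereas TGIF1 and TGIF2 repress transcription and restrain TGF-beta signaling. HOXB7, the target of the siRNA, is itself a HOX protein that binds DNA together with PBX.

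For 4 genes the array carries 2 probes, and for HOXA9, HOXA10 and HOXD9 the probes of one gene gave different pictures, so the first 30 bases of each of these probes are shown, written 5′ to 3′ in the sense of the transcript. The 2 probes of a gene are named 5′ and 3′ by their order along its strand. The names do not say how far either lies from an end of the gene. The deposited annotation uses hg18. It places the HOXA9 probes at chr7:27169670-27169729 and chr7:27169113-27169172 and the HOXA10 probes at chr7:27178314-27179548 and chr7:27177760-27177819, all on the minus strand. The 5′ probe of HOXA10 holds 60 bases while its span in the genome is 1235 bases, so it crosses a gap between aligned blocks. The HOXD9 probes lie on the plus strand at chr2:176697088-176697147 and chr2:176697275-176697334. Whether these positions fall in coding sequence or in an untranslated region was not determined, since no hg18 gene models were used here.
HOXA9 5′ probe: tagaaaaaagggtaagctagagagaaaaag
HOXA9 3′ probe: aaacagttgcatagagtatagctctgtagt
HOXA10 5′ probe: gctctccccggccccttccgagagcagcaa
HOXA10 3′ probe: gccatatcatgctaaaattctatagagata
HOXD9 5′ probe: ttcagaaccgtaggatgaaaatgaaaaaga
HOXD9 3′ probe: ttttttctttttagatagaagtgactgtgt

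Each array held 34127 gene probes on 43118 spots, and 69.2% to 74.3% of the spots of an array were well above background. A level is the log2 intensity of a probe minus the 75th percentile of the array, so 0 is that percentile and a step of 1 is a doubling. Levels of different probes were not compared with each other. All arrays of MIA PaCa-2 were on one slide and all of Capan-1 on another, so slide and cell line cannot be told apart, and the siRNA arrays took the first 2 positions of each slide, so position and treatment cannot be told apart either. HOXB7 was not above background on either siRNA array of MIA PaCa-2 and was at least 2.81-fold lower there than in parental cells (limma, adjusted p = 0.0173), a call that 9 of 18 alternatives kept. In Capan-1 the HOXB7 difference was -2.62 on the log2 scale (SE 0.26, adjusted p = 0.121). Of 8 epithelial markers, 8 were above background in Capan-1 and 6 in MIA PaCa-2, where CDH1 and EPCAM were not. Of their 11 probes, 10, covering all 8 genes, were lower in parental MIA PaCa-2 than in parental Capan-1 (limma, adjusted p under 0.05). Among all probes tested, 31.0% were lower. Of the marker genes of other cell types, 5 of 5 leukocyte genes, 2 of 3 endothelial genes, 1 to 4 of 6 fibroblast genes and 1 to 2 of 3 acinar genes were above background in the 4 groups, and the part of any of these in the results was not tested.

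The probes of the clusters differed in detection, and whether this lies with the genes or with the probes was not tested. On both arrays of a group, 9 of 12 HOXA probes were well above background in both MIA PaCa-2 groups and 11 of 12 in both Capan-1 groups. For HOXD the count was 2 of 10 probes on the MIA PaCa-2 siRNA arrays, 1 on the MIA PaCa-2 parental arrays, 1 on the Capan-1 siRNA arrays and 0 on the Capan-1 parental arrays. For the TALE genes it was 9 of 11 probes on the MIA PaCa-2 arrays and 10 of 11 on those of Capan-1. In all, 17 member probes of 16 genes were above background on all 8 arrays, where 59.4% of all probes were, and 6 member probes were above background on no array, where 18.3% of all probes were. The 6 probes belonged to HOXD3, HOXD8, HOXD11, HOXD12, HOXD13 and the 5′ probe of HOXD9. A lower level in a bulk sample can come from fewer cells that express a gene or from less RNA per cell, and these cannot be told apart.

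**Figure D1:**
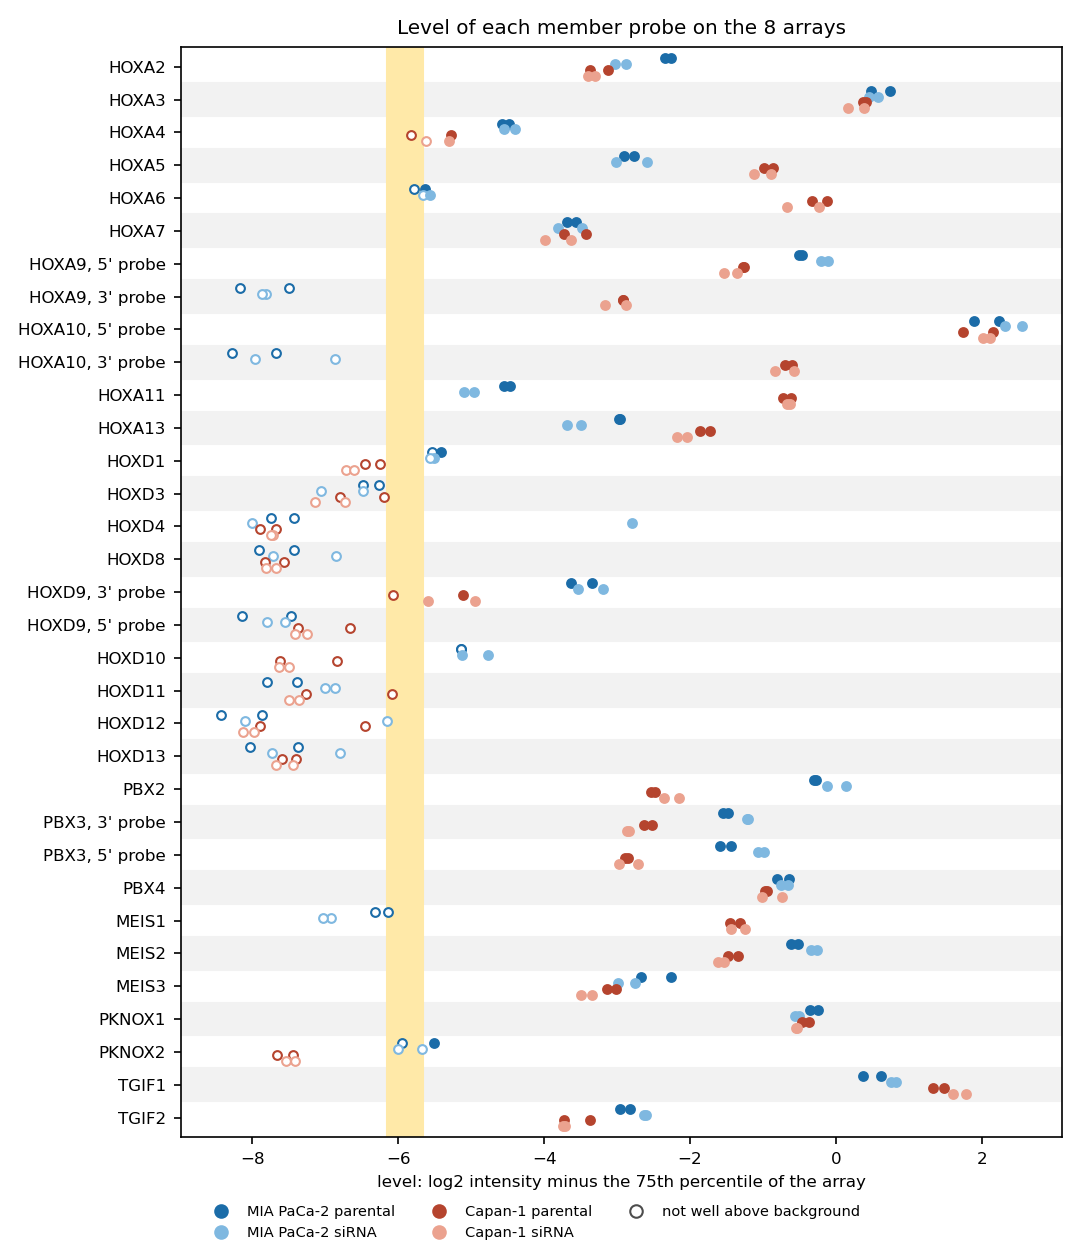
Level of each of the 33 member probes on the 8 arrays, as log2 intensity minus the 75th percentile of the array, with 1 point per array, colored by group, open where the probe was not well above background. The shaded band spans the lowest level called well above background over the 8 arrays. Levels are to be compared within a line of the plot only. Nearly all HOXD points are open, while HOXA6, MEIS1 and the 3′ probes of HOXA9 and HOXA10 are far apart between the lines.

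The parental cell lines were compared first, since they set the HOX background on which the siRNA acted. Of 23 member probes tested, 8 were lower in MIA PaCa-2 than in Capan-1 and 10 were higher at a limma adjusted p under 0.05. Among all 24960 probes tested, 31.0% were lower and 39.2% higher (70.2% in all; 32.3% and 40.5% at an unadjusted p under 0.05), so a share of this size is the rule between these lines. The median difference over the member probes was 0.22 against 0.11 over all probes. By probe, HOXA2, HOXA4 and the 5′ probe of HOXA9 were the HOXA calls higher in MIA PaCa-2, and HOXA5, HOXA6, HOXA11, HOXA13 and the 3′ probes of HOXA9 and HOXA10 the lower ones.

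At the HOXA2 end, HOXA2, which acts in hindbrain and branchial arch patterning, lay at -2.26 and -2.35 in parental MIA PaCa-2 and at -3.13 and -3.37 in parental Capan-1. The difference was 0.94 (SE 0.12, adjusted p = 0.000553). The groups did not overlap, and the share of all probes without overlap between the parental lines was not counted. By adjusted p, 70.2% of all probes tested passed. HOXA4 lay at -4.48 and -4.58 in MIA PaCa-2 and at -5.83 and -5.28 in Capan-1, where only the second array was above background. It was higher in MIA PaCa-2 by 1.03 (SE 0.20, adjusted p = 0.00476), although after normexp background correction the difference was 0.19 with an adjusted p of 0.102. HOXA3, between them, was at 0.75 and 0.48 in MIA PaCa-2 and 0.42 and 0.38 in Capan-1, a difference of 0.22 that did not pass (adjusted p = 0.179).

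HOXA5 was at -2.77 and -2.91 in parental MIA PaCa-2 and at -0.98 and -0.86 in parental Capan-1, lower in MIA PaCa-2 by 3.78-fold (log2 difference -1.92, SE 0.17, adjusted p = 0.000122). HOXA6, its neighbor, was at -5.63 and -5.78 in MIA PaCa-2, close to background and above it on 1 of the 2 arrays, and at -0.12 and -0.33 in Capan-1. The HOXA6 difference of -5.48 (SE 0.17, adjusted p = 1.79e-06) was measured against a level near background, and after normexp it was -2.41 (adjusted p = 4.47e-10). HOXA7 did not pass. It lay at -3.56 and -3.69 in MIA PaCa-2 and at -3.73 and -3.43 in Capan-1, so the groups overlapped, and its difference was -0.05 with a 95% interval from -0.50 to 0.41.

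HOXA11 and HOXA13, used in limb and urogenital development, were both lower in MIA PaCa-2. HOXA11 was at -4.55 and -4.46 in parental MIA PaCa-2 and at -0.62 and -0.73 in parental Capan-1, a difference of -3.83 (SE 0.093, adjusted p = 8.13e-07). HOXA13 was at -2.97 on both MIA PaCa-2 arrays and at -1.73 and -1.86 in Capan-1, a difference of -1.17 (SE 0.11, adjusted p = 0.000154). In neither gene did the lines overlap, in a comparison where 70.2% of all probes tested passed. The share of all probes without overlap was not counted.

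HOXA9 and HOXA10, best known for keeping blood progenitors undifferentiated, each gave a different result by each of its probes. On its 5′ probe HOXA9 was at -0.50 and -0.47 in parental MIA PaCa-2 and at -1.26 and -1.27 in parental Capan-1, higher in MIA PaCa-2 by 0.78 (SE 0.094, adjusted p = 0.000516). The 3′ probe of HOXA9 was not well above background on any of the 4 MIA PaCa-2 arrays and lay at -2.92 on both parental arrays of Capan-1, at least 8.47-fold higher in Capan-1 (adjusted p = 7.9e-06). Normexp, which adds an offset of 50 to every intensity, gave a log2 difference of -0.70 (adjusted p = 0.000108), smaller than this bound. The 2 probes of HOXA9 thus gave opposite directions.

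HOXA10 was at 1.89 and 2.24 in parental MIA PaCa-2 and at 2.15 and 1.75 in parental Capan-1 on its 5′ probe, and the groups overlapped (difference 0.12, 95% interval -0.34 to 0.57). The 3′ probe of HOXA10 was not well above background on any MIA PaCa-2 array and lay at -0.70 and -0.60 in Capan-1, at least 40.8-fold higher in Capan-1 (adjusted p = 1.29e-05), while the log2 difference after normexp was -2.11 (adjusted p = 2.13e-09). The siRNA arrays gave the same picture, with bounds of 7.63-fold for the 3′ probe of HOXA9 and 38.0-fold for the 3′ probe of HOXA10. The positions of the probes lie 498 bases apart in HOXA9 and 495 in HOXA10, and which transcripts each detects was not tested.

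**Figure D2:**
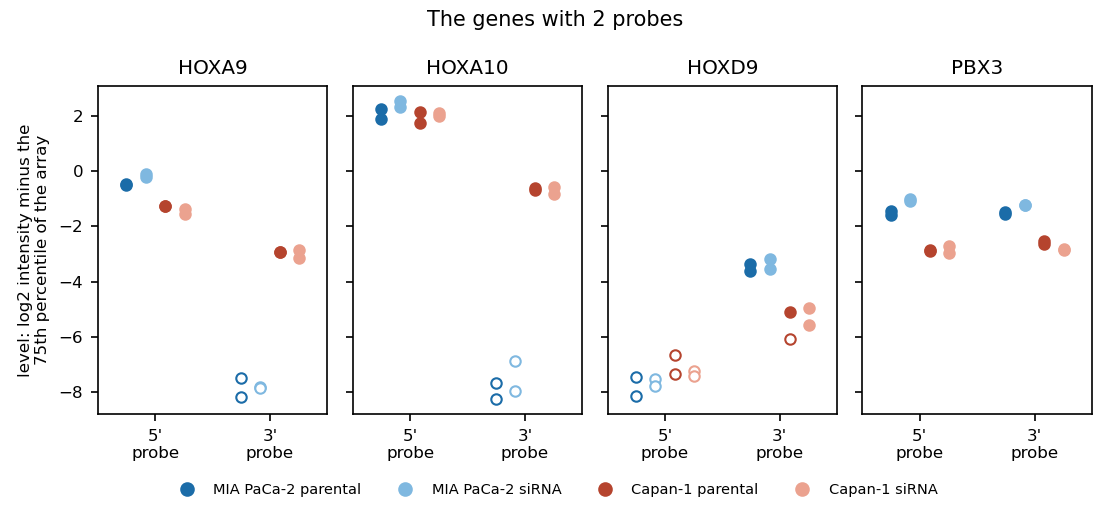
Level, as log2 intensity minus the 75th percentile of the array, of the 5′ and the 3′ probe of each gene with 2 probes, with 1 point per array, colored by group and open where not well above background. The 5′ probes of HOXA9 and HOXA10 are above background on all 8 arrays and their 3′ probes on the 4 Capan-1 arrays only, whereas the probes of PBX3 place the lines in the same order.

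Among the TALE genes, 6 of 10 tested probes were higher in MIA PaCa-2 and 2 lower, against 39.2% and 31.0% of all probes, and the MEIS3 and TGIF2 calls among the 6 were lost under the spike-in scaling. PBX2, a broadly expressed partner of HOX proteins, was at -0.28 and -0.30 in parental MIA PaCa-2 and at -2.48 and -2.54 in parental Capan-1, 4.67-fold higher in MIA PaCa-2 (log2 difference 2.22, SE 0.12, adjusted p = 1.59e-05). PBX3 was higher by both its probes. Its 3′ probe was at -1.48 and -1.54 in MIA PaCa-2 and at -2.63 and -2.52 in Capan-1, a difference of 1.06 (SE 0.081, adjusted p = 7.05e-05), and its 5′ probe gave 1.36 (adjusted p = 0.000102). PBX4 lay at -0.64 and -0.81 in MIA PaCa-2 and at -0.98 and -0.95 in Capan-1 and did not pass (difference 0.23, adjusted p = 0.13).

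The MEIS genes went different ways. MEIS1, the partner with which HOXA9 drives leukemia, was not above background on any of the 4 MIA PaCa-2 arrays and lay at -1.45 and -1.31 in parental Capan-1, at least 24.5-fold higher there (adjusted p = 8.19e-07), while the log2 difference after normexp was -1.63 (adjusted p = 5.42e-09). On the Capan-1 siRNA arrays MEIS1 was at -1.44 and -1.25, at least 24.3-fold above the MIA PaCa-2 siRNA arrays. MEIS2 was at -0.62 and -0.52 in parental MIA PaCa-2 and at -1.35 and -1.48 in parental Capan-1, higher in MIA PaCa-2 by 0.84 (SE 0.092, adjusted p = 0.00034). MEIS3 was at -2.26 and -2.67 in MIA PaCa-2 and at -3.14 and -3.02 in Capan-1, a difference of 0.62 (SE 0.16, adjusted p = 0.0151), the weakest of the calls. It was lost without MIA PaCa-2 parental replicate 1 (0.42, adjusted p = 0.0561), without Capan-1 parental replicate 1 (0.56, adjusted p = 0.0784), without scaling (0.65, adjusted p = 0.0605) and under the spike-in scaling (0.48, adjusted p = 0.136).

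TGIF1 and TGIF2 moved in opposite directions. TGIF1 was at 0.37 and 0.62 in parental MIA PaCa-2 and at 1.33 and 1.49 in parental Capan-1, lower in MIA PaCa-2 by 1.89-fold (log2 difference -0.92, SE 0.12, adjusted p = 0.000878). TGIF2 was at -2.82 and -2.95 in MIA PaCa-2 and at -3.73 and -3.37 in Capan-1, higher in MIA PaCa-2 by 0.67 (SE 0.13, adjusted p = 0.00498), and under the spike-in scaling the difference of 0.53 no longer passed (adjusted p = 0.0679). PKNOX1, which binds PBX proteins, was at -0.25 and -0.36 in MIA PaCa-2 and at -0.37 and -0.47 in Capan-1, a difference of 0.12 that did not pass (adjusted p = 0.248). PKNOX2 was above background on a single array, MIA PaCa-2 parental replicate 1, at -5.51.

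In the HOXD cluster the one gene tested between the lines was HOXD9, by its 3′ probe. It lay at -3.63 and -3.34 in parental MIA PaCa-2 and at -6.07 and -5.11 in parental Capan-1, where the first array was not above background, and it was higher in MIA PaCa-2 by 2.11 (SE 0.37, adjusted p = 0.00268), by 0.36 after normexp (adjusted p = 0.00573). The 5′ probe of HOXD9 ranged from -8.15 to -7.47 in MIA PaCa-2 and from -7.42 to -6.66 in Capan-1 and was above background nowhere. HOXD10 was above background on 3 arrays, all of MIA PaCa-2, at -4.77 and -5.12 after siRNA and -5.15 on the first parental array, and its parental level was at least 1.71-fold above that of Capan-1, with 1 of 2 parental arrays above background.

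HOXD1, on 10 spots, was above background on the first array of each MIA PaCa-2 group, at -5.51 after siRNA and -5.41 in parental cells, and on no Capan-1 array. HOXD4 was above background on a single array, MIA PaCa-2 siRNA replicate 1, at -2.79, while the other 7 arrays lay between -8.00 and -7.43. HOXD4 was therefore not tested. Its mean after siRNA was at least 1.52-fold above the parental level, a bound that rests on that single array. HOXD3, HOXD8, HOXD11, HOXD12 and HOXD13 stayed between -8.44 and -6.09 on every array, and HOXD13, the gene at the end of the cluster used in the digits, did not exceed -6.80.

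**Figure D3:**
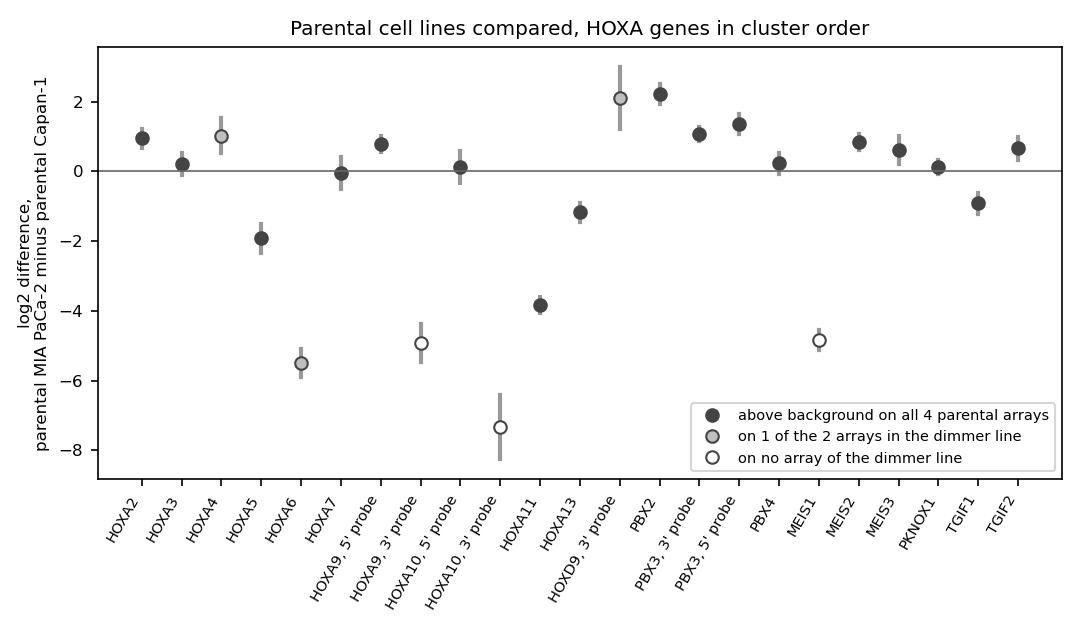
Log2 difference between parental MIA PaCa-2 and parental Capan-1 cells for the 23 member probes tested, with the HOXA genes in their order along the cluster. Points are differences of group means of 2 arrays each and bars their 95% intervals from limma, and gray and open points mark probes that were above background on 1 or on no array of the dimmer line. HOXA2 and HOXA4 lie above 0, HOXA5, HOXA6, HOXA11 and HOXA13 below it, the probes of HOXA9 lie on either side, and the bar of the HOXA10 5′ probe spans 0.

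HOXB7 siRNA was then compared with parental cells. In MIA PaCa-2, 20 member probes of 19 genes were tested and 0 were lower and 0 higher at a limma adjusted p under 0.05, where 0.936% of all 23708 probes tested were lower and 0.983% higher (1.92% in all). At an unadjusted p under 0.05, 5 member probes lay lower and 5 higher, against 9.87% and 10.6% of all probes. The median difference was 0.084 over the member probes and 0.022 over all probes. The 95% intervals of the 20 differences lay between -0.93 and 1.02.

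The lowest values in MIA PaCa-2 belonged to 3 HOXA genes whose adjusted p lay just over the threshold. HOXA2 was at -2.88 and -3.03 after siRNA against -2.26 and -2.35 in parental cells, a difference of -0.65 (SE 0.12, adjusted p = 0.055, 95% interval -0.93 to -0.37). HOXA13 was at -3.69 and -3.49 against -2.97 on both parental arrays, a difference of -0.62 (SE 0.11, adjusted p = 0.0529). HOXA11 was at -4.96 and -5.10 against -4.55 and -4.46, a difference of -0.53 (SE 0.093, adjusted p = 0.0546). In all 3 genes the siRNA pair lay wholly below the parental pair, and 23.3% of all probes tested did the same. The 3 genes were chosen as the lowest, so this order adds little to their differences.

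These 3 values passed or missed the threshold with the processing. HOXA2 and HOXA11 passed after quantile normalization (adjusted p = 0.0407 and 0.0299), HOXA2 and HOXA13 with an intensity trend in the spread (adjusted p = 0.0441 and 0.0399), and all 3 when only probes above background on all 8 arrays were tested (adjusted p = 0.0283, 0.0273 and 0.0294 for HOXA2, HOXA13 and HOXA11). HOXA11 had intensities of 7.55 to 14.0 in MIA PaCa-2, where the lowest intensity called well above background was 3.62 to 4.67, and after normexp background correction its difference was 0.035 (adjusted p = 0.841). The same correction left -0.24 for HOXA2 (adjusted p = 0.159) and -0.11 for HOXA13 (adjusted p = 0.469). Normexp adds an offset of 50 to every intensity, more than the intensities of HOXA11, so it shrinks any HOXA11 difference. The value of 0.035 therefore cannot show whether HOXA11 changed direction. Normexp moved the median of all probes in MIA PaCa-2 to 0.077, and relative to it HOXA11 stood at -0.042.

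Upward, the largest values were those of PBX3, HOXA10 and HOXA9. The 5′ probe of PBX3 was at -0.99 and -1.06 after siRNA against -1.58 and -1.44 in parental MIA PaCa-2, a difference of 0.49 (SE 0.11, adjusted p = 0.0926). The 3′ probe of PBX3 was at -1.21 on both siRNA arrays against -1.48 and -1.54 (difference 0.30, adjusted p = 0.121). Neither passed, although the siRNA arrays lay above the parental arrays in both, where 28.0% of all probes tested did the same.

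By its 5′ probe HOXA10 was at 2.31 and 2.55 against 1.89 and 2.24, a difference of 0.37 (SE 0.19, adjusted p = 0.329). HOXA9, by its 5′ probe, was at -0.10 and -0.21 against -0.50 and -0.47, a difference of 0.33 (SE 0.094, adjusted p = 0.133). The 3′ probes of both genes could not be read in this line.

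By sign alone, 7 of 9 tested TALE probes and 4 of 9 HOXA probes had differences above 0 in MIA PaCa-2, against 53.6% of all probes, and none of them passed. Under the other scalings and normexp, 6 or 7 of the 9 TALE probes stayed above 0 and 3 to 7 of the 9 HOXA probes lay below. Over all member probes tested, the siRNA pair lay wholly above the parental pair in 9 probes, those of HOXA9, HOXA10, HOXD10, MEIS2, PBX2, PBX3 (both probes), TGIF1 and TGIF2, and 28.0% of all probes did the same. They lay below in 5, those of HOXA2, HOXA11, HOXA13, MEIS3 and PKNOX1, and 23.3% of all probes did the same.

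In Capan-1, 22 member probes of 19 genes were tested and 0 were lower and 0 higher, where limma called 0.0% of all 23367 probes lower and 0.00428% higher. Without adjustment, at p under 0.05, 2 member probes were lower and 0 higher, against 6.59% and 5.85% of all probes. The smallest adjusted p was 0.326, and the 95% intervals lay between -0.97 and 1.22. The median difference was -0.10 over the member probes and -0.00083 over all probes.

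MEIS3 had the lowest difference in Capan-1. It was at -3.34 and -3.49 after siRNA against -3.14 and -3.02 in parental cells, a difference of -0.33 (SE 0.16, adjusted p = 0.455). HOXA13 followed, at -2.04 and -2.18 against -1.73 and -1.86, a difference of -0.32 (SE 0.11, adjusted p = 0.35). The 3′ probe of PBX3 was at -2.86 and -2.83 against -2.63 and -2.52 (difference -0.27, adjusted p = 0.326), whereas its 5′ probe, at -2.71 and -2.97 against -2.85 and -2.89, overlapped (difference 0.03).

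The highest differences in Capan-1 were those of TGIF1, PBX2 and HOXA10 among the probes above background on all 4 arrays. TGIF1 was at 1.60 and 1.78 against 1.33 and 1.49, a difference of 0.28 (SE 0.12, adjusted p = 0.431) that turned to -0.0056 when the arrays were scaled to the spike-in controls. PBX2 was at -2.35 and -2.15 against -2.48 and -2.54, a difference of 0.26 (SE 0.12, adjusted p = 0.438) that turned to -0.026 in the same scaling. The 5′ probe of HOXA10, at 2.11 and 2.02 against 2.15 and 1.75, overlapped with a difference of 0.12 (adjusted p = 0.827), which fell below 0 without scaling, with the spike-in scaling and without Capan-1 parental replicate 2. The spike-in scaling moved the median of all probes in Capan-1 to -0.29, and relative to it TGIF1 stood at 0.28 and PBX2 at 0.26. Without scaling this median was -0.16, and the 5′ probe of HOXA10 stayed above the median in both settings.

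The siRNA arrays of Capan-1 lay below both parental arrays in 6 member probes and above in 2, against 27.1% and 27.1% of all probes. HOXA13, MEIS3 and PKNOX1 lay below in both lines, 3 of the 18 member probes tested in both, where 10.6% of all probes did. PBX2 and TGIF1 lay above in both lines, 2 of 18, where again 10.6% of all probes did. The order opposed between the lines in 3 of the 18, above in MIA PaCa-2 and below in Capan-1, where 4.03% of all probes did so, and in 0 of the 18 the other way round, where 3.65% did. The levels of MEIS1 and HOXA6 in Capan-1 remained far from those of MIA PaCa-2 after siRNA, with HOXA6 at -0.24 and -0.68 and their differences from parental Capan-1 at 0.04 and -0.23.

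**Figure D4:**
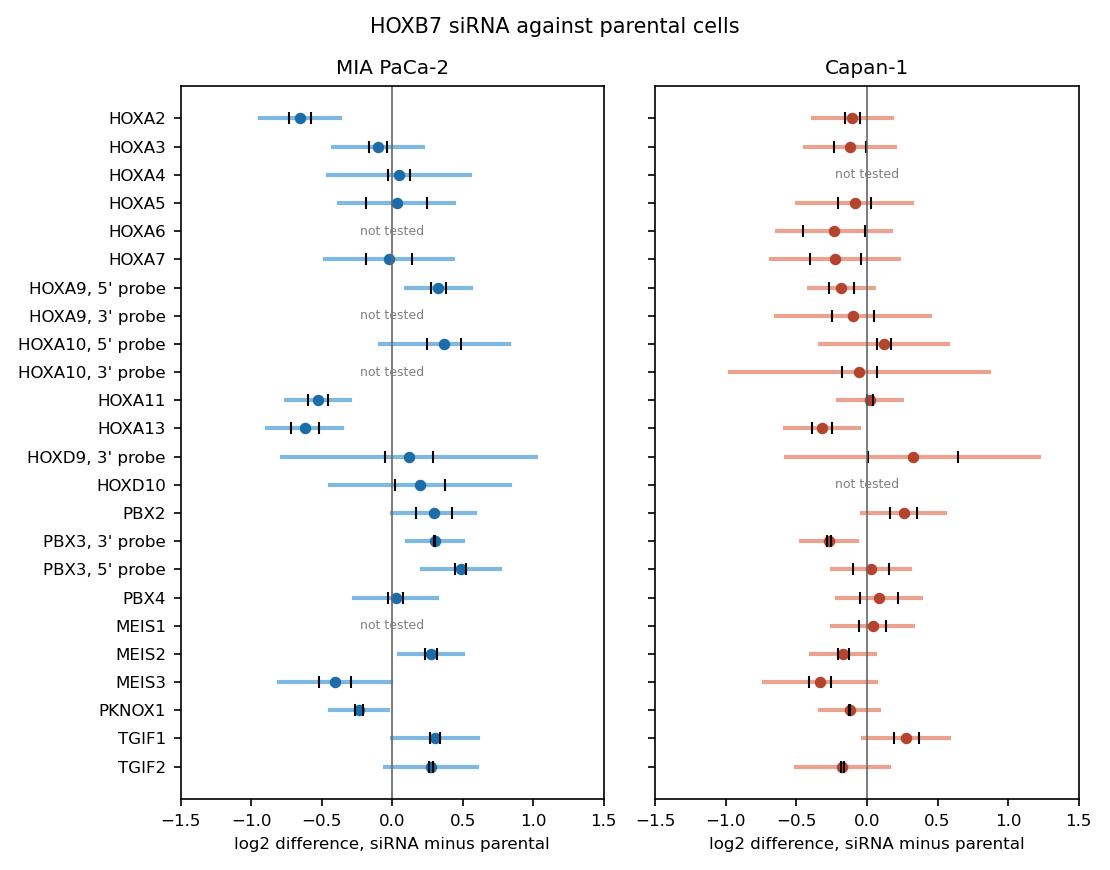
Log2 difference between HOXB7 siRNA-treated and parental cells for the member probes tested in MIA PaCa-2 (20 probes) and Capan-1 (22 probes). Points are differences of group means of 2 arrays each, bars their 95% intervals from limma, and black ticks each siRNA array minus the parental mean. The intervals of HOXA2, HOXA11 and HOXA13 lie below 0 in MIA PaCa-2, yet no probe passed after adjustment over all probes. With normexp, whose offset of 50 exceeds the HOXA11 intensities, HOXA11 gave 0.035, or -0.042 relative to the median of all probes. TGIF1 and PBX2 in Capan-1 turned below 0 with the spike-in scaling, where the median of all probes was -0.29.

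The response was set against the line by testing the difference between the lines in the siRNA effect. Of 24 member probes, 0 passed, where 0.00391% of all 25549 probes were lower and 0.00391% higher (0.00783% in all). At an unadjusted p under 0.05, 3 member probes were lower and 4 higher, against 4.88% and 6.19% of all probes. The smallest adjusted p was 0.194, for the 3′ probe of PBX3, whose response was 0.57 higher in MIA PaCa-2 (SE 0.12). HOXA11 had a response 0.55 lower in MIA PaCa-2 (difference -0.55, SE 0.13, adjusted p = 0.25), and HOXA2 gave -0.55 (SE 0.16, adjusted p = 0.328). MEIS1 gave -0.78 (adjusted p = 0.205), but its MIA PaCa-2 levels were below background throughout.

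The interval of the study's methods was rebuilt as well, for single probes, where a probe is called when both siRNA arrays differ from the parental arrays by more than the 99% interval of the parental pair at its intensity. By this rule 0 member probes lay outside in MIA PaCa-2, where 0.25% of 23646 probes lay below and 0.292% above, and 0 in Capan-1, where 0.733% of 23334 probes lay below and 1.12% above. With a 95% interval, TGIF1 lay above it in Capan-1, and no other member did in either line. The methods also asked for 2 or more probes of a gene that moved together, which was not applied here and which 25 of the 29 members, TGIF1 among them, could not meet with 1 probe.

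The other HOX clusters and regulators were examined by the same test. In the HOXB cluster, 1 of 9 genes tested was lower in MIA PaCa-2, the target HOXB7, and 0 of 9 in Capan-1. In the HOXC cluster, 1 of 4 genes tested was lower in MIA PaCa-2, which was HOXC8, a trunk HOX gene, with a mean level of -2.67 ± 0.017 after siRNA against -1.34 ± 0.14 in parental cells (SD, n = 2 each) and a difference of -1.34 (SE 0.11, limma adjusted p = 0.0173), and 0 of 6 in Capan-1. The HOXC8 call remained in 11 of 19 alternatives and was lost among others when MIA PaCa-2 was fitted alone and without any one of the 4 Capan-1 arrays or MIA PaCa-2 siRNA replicate 1, with adjusted p up to 0.169. Of the 36 regulators of HOX genes tested in each line, among them the CDX factors, MLL and Polycomb subunits and retinoic acid receptors, 0 passed in either line. Of the SMAD and corepressor partners of TGIF proteins, 0 of 13 tested in MIA PaCa-2 passed, as did 0 of the 12 tested in Capan-1. Among the epithelial markers MUC1 was lower in MIA PaCa-2 after siRNA (difference -0.92, adjusted p = 0.0247), a call kept in 7 of 19 alternatives (adjusted p up to 0.169), and its part in the member values was not tested.

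Promoters were read for the members from RefSeq on GRCh38.p14, where 26 of the 29 genes had an entry, with 42 starts. The 250 bases before the start held a median of 21 CpG in the member starts and 11 over all 35116 starts. A composite PBX and HOX motif, TGATNNAT, was searched on both strands and found in 5 of 42 member starts (HOXA2, HOXD11, MEIS2 and TGIF1) and in 6.47% of all starts. The MEIS and TGIF motif TGACAG was found in 5 of 42 (HOXA2, HOXA4, PBX3 and TGIF1) and in 13.0% of all starts. The motif TTTATNG, used by HOX proteins of the tail end, was found in 7 of 42, from 6 genes, and in 8.93% of all starts. Shown are the upstream bases of HOXA2, the lowest value after siRNA in MIA PaCa-2 and a start with both of the first motifs, and of HOXA6 and MEIS1, both far higher in Capan-1 and close to or below background in MIA PaCa-2, which hold none of the 3. They lie at chr7:27102684-27102933 and chr7:27147775-27148024 on the minus strand and at chr2:66434875-66435124 on the plus strand. Capitals mark TGATNNAT, here read on the opposite strand, and TGACAG, which do not overlap, and a match is a description and not a bound site.
HOXA2 upstream: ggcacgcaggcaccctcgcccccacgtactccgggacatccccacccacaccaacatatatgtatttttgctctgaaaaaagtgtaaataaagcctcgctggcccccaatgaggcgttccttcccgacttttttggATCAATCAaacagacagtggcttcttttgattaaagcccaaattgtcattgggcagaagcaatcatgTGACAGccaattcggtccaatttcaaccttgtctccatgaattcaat
HOXA6 upstream: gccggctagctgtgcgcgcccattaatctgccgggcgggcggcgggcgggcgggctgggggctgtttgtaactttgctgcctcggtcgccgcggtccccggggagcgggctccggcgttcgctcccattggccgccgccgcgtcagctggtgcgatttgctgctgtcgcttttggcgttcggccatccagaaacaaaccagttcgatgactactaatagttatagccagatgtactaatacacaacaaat
MEIS1 upstream: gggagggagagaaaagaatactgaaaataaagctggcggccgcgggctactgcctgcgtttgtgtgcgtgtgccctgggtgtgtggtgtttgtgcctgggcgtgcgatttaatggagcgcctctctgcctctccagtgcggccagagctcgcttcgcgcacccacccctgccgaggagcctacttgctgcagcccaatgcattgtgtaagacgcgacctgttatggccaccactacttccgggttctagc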

How the data were processed

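The authors scanned one-color Agilent arrays and used Agilent Feature Extraction 9.5.3 to subtract the background, and they deposited the intensity of every spot with outlier flags and background calls. A deposited log2 matrix of 43118 spots equals the log2 of this intensity on every array, so nothing had been scaled between arrays. Coordinates are those of hg18 in the deposited annotation. Of 33 member probes, 32 carry an accession that RefSeq pairs with the same symbol.

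Spots without an outlier flag were averaged per probe, and the 75th percentile of the array was subtracted. A probe counted as well above background when more than 50% of its spots were so called, and entered a test when this held for both arrays in 1 or both of the groups compared. Group means over the 8 arrays were fitted with limma 3.58.1 (lmFit and eBayes) in R 4.3.3 with data.table (version 1.17.8), two-sided, with Benjamini-Hochberg adjustment over all probes tested and a threshold of 0.05. An exact permutation test of 2 arrays against 2 cannot go below p = 0.333. Where a group was on no array above background, the fold was computed against the lowest level called well above background on each array, and is given as at least. The parental interval held 99% of the log2 ratios of the parental pair among the 1000 probes nearest in intensity. Python 3.11.15 with numpy 2.4.6, pandas 2.3.3 and matplotlib 3.10.9 made the tables and figures.

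Simulated arrays, 2 per group, had no difference between the lines, independent noise and every probe above background. The same 200 of 25445 probes were changed in both lines. There limma recovered 51.5% (MIA PaCa-2) and 48.5% (Capan-1) of those changed by 1 on the log2 scale. It recovered 89.5% and 87.5% of those changed by 2, and called 0 with nothing changed. The data differ from this setting, so these shares do not carry over to them. In Capan-1 the HOXB7 difference of -2.62 did not pass (limma adjusted p = 0.121). The number of arrays limits the precision.

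The members, lists and tests were chosen with earlier results of these data known. Values were given for member probes past the threshold in a siRNA comparison, for the 3 highest and 3 lowest in each line among probes above background on its 4 arrays, for each gene past the threshold between the parental lines by the probe with the smallest p, and for genes above background on all arrays of one line and none of the other. Other members are given by detection and range, or beside their neighbors. Tried as alternatives were normexp background correction (offset 50), quantile, spike-in or no scaling, keeping outlier spots, the deposited log2 matrix, a stricter and no filter on dim probes, a fit per line, a block for the replicate number, a trend of the spread with intensity, and leaving out single arrays, after which the remaining array of that group borrows the spread of the others. The interval was also computed with another width, window, scaling and pairing. Results from quantitative PCR and Western blotting are not analysed here.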

Additional observations from a re-analysis of the deposited data

Results flagged for a closer look

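In 3 genes the siRNA pair lay wholly above the parental pair in MIA PaCa-2 and wholly below it in Capan-1, for 1 probe each, where 4.03% of all probes tested in both lines did the same. The response in MIA PaCa-2 minus that in Capan-1 was 0.57 for the 3′ probe of PBX3 (limma adjusted p = 0.194), 0.51 for the 5′ probe of HOXA9 (adjusted p = 0.282) and 0.44 for MEIS2 (adjusted p = 0.322), so none passed the test of the difference. The other probe of PBX3 gave a response 0.46 higher in MIA PaCa-2 (adjusted p = 0.388), with overlapping arrays in Capan-1. No member showed the reverse order.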

How the results depend on the processing

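Between siRNA-treated and parental MIA PaCa-2, the count of members lower was 0 and became 2 after quantile normalization (HOXA2 and HOXA11), 2 with an intensity trend in the spread (HOXA2 and HOXA13) and 3 among probes above background on all 8 arrays (HOXA2, HOXA11 and HOXA13). Over all alternatives the adjusted p ran from 0.0283 to 0.172 for HOXA2, from 0.0273 to 0.469 for HOXA13 and from 0.0294 to 0.841 for HOXA11. With each array left out, the count of members higher ran from 0 to 1, and so did that of the difference between the lines, in both cases HOXD4 without MIA PaCa-2 siRNA replicate 2. The other counts ran from 0 to 0 in the siRNA comparisons and from 8 to 8 lower and 9 to 13 higher between the parental lines. Between the parental lines 4 probes were lower when only probes above background on all 8 arrays were tested, which leaves out HOXA6, MEIS1 and the 3′ probes of HOXA9 and HOXA10. With a 95% interval of the parental pair, 1 member was higher in Capan-1.

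Normexp shrank the differences of dim probes, as given with their values. The sign turned for HOXA11 in MIA PaCa-2 with normexp (0.035, but -0.042 relative to the median of all probes). The offset of 50 exceeds the HOXA11 intensities, so normexp cannot decide the direction of HOXA11. In Capan-1 the sign turned for TGIF1 (-0.0056), PBX2 (-0.026) and HOXA10 (-0.16) with the spike-in scaling. For HOXA10 it also turned without scaling (-0.037) and without Capan-1 parental replicate 2 (-0.081). The HOXA10 range with each array left out was -0.081 to 0.32. Of 510 values of single probes, 491 kept direction and side of the threshold, and of 172 counts 165 stayed within 1.5 times; the causes were not tested. Without scaling, the median over all probes moved to -0.19 (MIA PaCa-2) and -0.16 (Capan-1), and with the spike-in scaling to -0.076 and -0.29. The TALE probes above 0 in Capan-1 were 5 of 10, 2 of 10 without scaling and 0 of 10 with the spike-in scaling, and the HOXA probes below 0 were 9 of 11, 6 of 11 with normexp and 11 of 11 without scaling.

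Calls over all probes in MIA PaCa-2, 222 lower and 233 higher, became 0 and 0 when the line was fitted alone, 1 and 2 without any one Capan-1 array, 34 and 14 without scaling, 18 and 14 with the spike-in scaling, 529 and 466 with normexp and 691 and 586 with the trend. With 2 arrays a group these counts, and those of the members, depend on how the spread is estimated. Replicate numbers did not pair the samples (correlation of deviations 0.023 for MIA PaCa-2, 0.038 for Capan-1). With the replicate number as a block, the calls over all probes in MIA PaCa-2 were 0 and 0, the adjusted p of HOXA2 was 0.172, and between the parental lines 8 member probes were lower and 10 higher.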

Other observations

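Probes of neighboring transcripts within the HOXA region were read as well, chosen after their values had been seen. LOC285943 (hg18 chr7:27128197-27128256) was above background on all 4 MIA PaCa-2 arrays, at -3.22 and -3.10 after siRNA and -2.76 and -2.75 in parental cells, and on no Capan-1 array. LOC100133311 (hg18 chr7:27158799-27158858) was above background on all 4 Capan-1 arrays, at -2.44 and -2.49 after siRNA and -2.64 and -2.68 in parental cells, and on no MIA PaCa-2 array, and a second probe of it gave the same detection. HOXA11AS, the transcript antisense to HOXA11, was above background on all 8 arrays and lower in parental MIA PaCa-2, at -1.37 and -1.36, than in parental Capan-1, at -0.064 and -0.22 (difference -1.22, limma adjusted p = 0.000105). In MIA PaCa-2 HOXA11AS lay at -2.01 and -2.17 after siRNA, below both parental arrays. HOXA11 and LOC285943 did the same, as did 23.3% of all probes tested. These values are a description of the chosen probes.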
